A study of Rattus norvegicus with 28 samples.

Results

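The genes described here are the folding, quality control and stress genes of the endoplasmic reticulum (ER), the compartment in which a beta cell makes proinsulin. They were chosen by name: 34 symbols were listed, 33 were found in the expression table of 17455 symbols, and Derl2 was not analysed here. All 33 had a mean of at least 1 TPM (a transcript level scaled to transcript length and to the library total) and were among the 10275 genes tested. A symbol with several transcripts was represented by the one with the highest mean.

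Proteins that enter the ER are threaded through the Sec61 channel, lose their signal peptide, and are folded by the chaperone BiP, by the calnexin and calreticulin cycle for glycoproteins, and by enzymes that form and rearrange disulfide bonds. Chains that fail to fold are pulled back to the cytosol and degraded, a route called ER-associated degradation. When unfolded chains accumulate, the membrane sensors Ire1 (encoded by Ern1), Atf6 and Perk start the unfolded protein response, in which the transcription factors Xbp1 and Atf6 raise the genes of this machinery. Beta cells depend on it because proinsulin is a large share of what they synthesise.

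Bulk RNA-seq was made from the insulin-secreting rat tumour line INS-1, with either wild-type Med14 (WT) or a CRISPR knock-in that replaces a serine of the Mediator subunit Med14 by alanine (S983A). Cells of each genotype were moved to medium without serum and left untreated (CON) or given the incretin mimetic exendin-4 (Ex-4, 10 nM), which raises cAMP through a surface receptor, or forskolin (FSK, 10 µM), which acts on adenylyl cyclase itself, for 1, 8 or 16 h, which gave 14 groups of 2 libraries. Each genotype had a single CON group, without a time in the labels, which served as control for all treatment times. A difference from CON or between times therefore cannot be told apart from time after the medium change. The labels do not say which knock-in line a library came from or whether the 2 libraries of a group were separate cultures. The p-values therefore measure the spread between libraries within groups, pooled over the 14 groups, which may not be that between cultures or lines. The point mutation cannot be told apart from other differences between the lines. Libraries held 42183632 to 56755942 fragments, except for 91794144 in S983A 8 h FSK replicate 2.

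Med14 itself was at 21.5 and 20.3 TPM in the WT CON libraries and at 19.6 and 20.3 TPM in the S983A CON libraries, and a point mutation is not read by this measure. The beta cell label held for Ins1, which was at 33720 TPM or more in every library, and for Pdx1, at 111 TPM or more. Other beta cell markers differed between the genotypes in both directions. Slc2a2 was at 534 and 500 TPM in WT CON against 63.6 and 61.7 TPM in S983A CON. Iapp was at 7007 and 6973 TPM against 3213 and 3328 TPM, and Ins2 at 2885 and 2991 TPM against 32620 and 37520 TPM. Nkx6-1, Slc30a8 and Pcsk1 were at 13.25, 154 and 26.9 TPM or more in every library. Mafa and G6pc2 were not analysed here. Of 13 markers of other cell types, 12 stayed at or under 1.75 TPM in every library and Amy2a3 was listed at 0. The other one was the alpha cell hormone gene Gcg. The summed level of the 13 was 167 and 169 TPM in WT CON, 948 and 967 TPM in WT 16 h Ex-4, and 6.75 and 7.32 TPM in S983A CON, and the part of this in the differences below was not tested. In bulk RNA, fewer cells of a type and less RNA per cell cannot be told apart.

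Promoter sequence was looked at because the ER stress response element, the site known for Atf6 and Xbp1, has a fixed spelling. Of the 34 genes, 27 had a window from 250 bases before to 50 bases after the start site in RefSeq (GRCr8). The element (CCAAT, any 9 bases, CCACG, on either strand) was found in 8 of the 27 windows (29.6%), those of Hspa5, Hsp90b1, Calr, Canx, Creld2, Derl3, Dnajc3 and Xbp1, against 21 of 27457 windows of all genes (0.0765%). Its second form (ATTGG, any 1 base, CCACG) was found in Herpud1, Hyou1 and Dnajb11, 11.1% of the windows against 0.0619% of all. The unfolded protein response element TGACGTGG was found in Hyou1 alone (3.7% against 0.681%), where it overlaps a match of the second form. The cAMP response element TGACGTCA was in none of the 27 windows and in 2.0% of all, which says only that these letters are not there. The matches are shown, in capitals within 10 bases on either side and read along the gene, for genes that the results below return to.
Hspa5, chr3:38452963-38453001 (GRCr8, + strand): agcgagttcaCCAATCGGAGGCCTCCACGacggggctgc
Xbp1, chr14:84604548-84604586 (GRCr8, + strand): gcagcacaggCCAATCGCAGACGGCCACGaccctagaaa
Dnajc3, chr15:102432524-102432562 (GRCr8, + strand): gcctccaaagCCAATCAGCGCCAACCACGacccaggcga
Creld2, chr7:121789229-121789267 (GRCr8, + strand): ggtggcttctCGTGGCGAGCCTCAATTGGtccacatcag
Derl3, chr20:12766591-12766629 (GRCr8, - strand): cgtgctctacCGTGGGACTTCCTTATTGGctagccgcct
Herpud1, chr19:10614811-10614841 (GRCr8, - strand): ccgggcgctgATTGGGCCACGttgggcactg
In Hspa5, Xbp1 and Dnajc3 the element reads forward along the gene, and in Creld2 and Derl3 it reads in reverse, as CGTGG, 9 bases, ATTGG.

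Summed, the 33 genes took a larger share of the RNA at 8 and 16 h of either agent than in untreated WT cells. They held 1.04% and 1.03% of all TPM in the WT CON libraries, 1.04% and 1.05% after 1 h of Ex-4, 1.58% and 1.62% after 8 h, and 1.62% and 1.65% after 16 h. FSK reached 2.40% and 2.58% at 8 h and 2.01% and 2.05% at 16 h, so on the TPM scale the 8 h FSK libraries stood above all other WT libraries. With ERCC scaling the order of these times turned, with mean shares of 2.25% at 8 h and 2.39% at 16 h of FSK in WT. In S983A cells the share was already 1.42% and 1.34% untreated, and it was 2.19% in both libraries at 8 h of Ex-4 and 3.71% and 3.75% at 8 h of FSK. Of this sum, the 5 genes with the highest mean (Hspa5, Calr, Hsp90b1, Pdia3 and P4hb) held 55.3% and 55.5% in WT CON. They held 58.7% and 59.6% at 8 h of FSK in WT. In S983A they held 53.1% and 52.4% in CON and 61.3% and 61.5% at 8 h of FSK. These 5 thus made up most of the share, but a smaller part of it in S983A CON than in WT CON. The share is a description of the libraries, and no test was made on it.

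**Figure D1:**
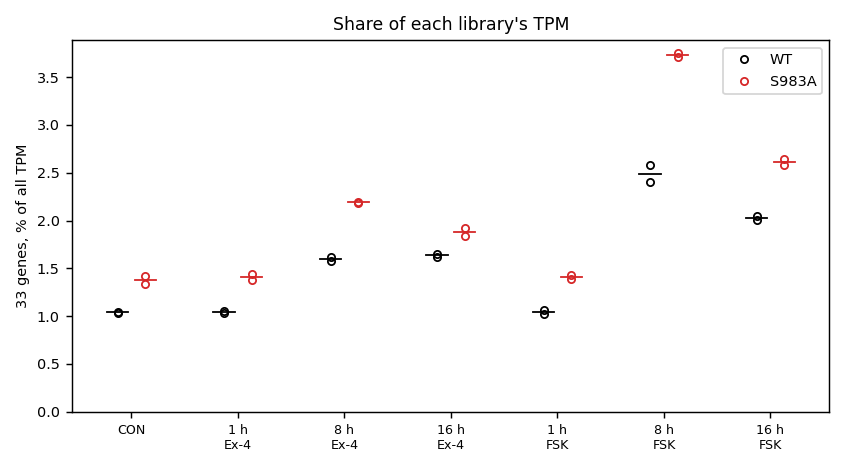
Share of all TPM held by the 33 genes (y axis, percent) in each library (open circles; horizontal lines are means of 2) by treatment, WT in black and S983A in red. S983A CON (1.42% and 1.34%) lies above WT CON (1.04% and 1.03%), and 8 h FSK is the highest treatment in both genotypes on this scale; with ERCC scaling 16 h FSK is higher in WT (2.39% against 2.25%).

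At 1 h none of the 33 genes was called in WT (limma on log2(TPM + 1), Benjamini-Hochberg adjusted p under 0.05 over all genes tested and a fold above 1.5). The tools edgeR and DESeq2 also called none. The count at an unadjusted p under 0.05 was 1 for Ex-4 and 3 for FSK by limma, 8 and 20 by edgeR, and 10 and 23 by DESeq2. On the TPM scale 16 of the 33 lay above 0 for Ex-4 and 12 for FSK, against 31 and 32 by edgeR or DESeq2. The direction of these small differences thus depends on the scaling. Over all genes 1.75% were called higher and 1.12% lower at 1 h of Ex-4, and 2.53% higher and 4.94% lower at 1 h of FSK. Ex-4 for 8 h gave 15 genes called higher and 0 lower, against 3.61% higher and 5.99% lower over all genes, with a median log2 difference of 0.52 beside -0.10 for all genes. Ex-4 for 16 h gave 17 higher and 0 lower, against 3.53% and 8.28% over all genes, with a median of 0.62 beside -0.16. FSK called 26 higher and 1 lower at 8 h (8.77% and 34.8% over all genes; median 1.10 beside -0.34) and 24 higher and 0 lower at 16 h (10.3% and 24.1%; median 0.96 beside -0.20). TPM is relative within a library. Scaled on the ERCC spike-in RNAs instead, the median of all genes at 16 h of Ex-4 moved from -0.16 to 0.15. On that scale 26 of the 33 were called higher, and the share over all genes on that scale is not given here. By edgeR, 19 were called higher at 8 h and 19 at 16 h of Ex-4, and 31 and 27 for FSK. By DESeq2 these counts were 19, 20, 31 and 30.

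**Figure D2:**
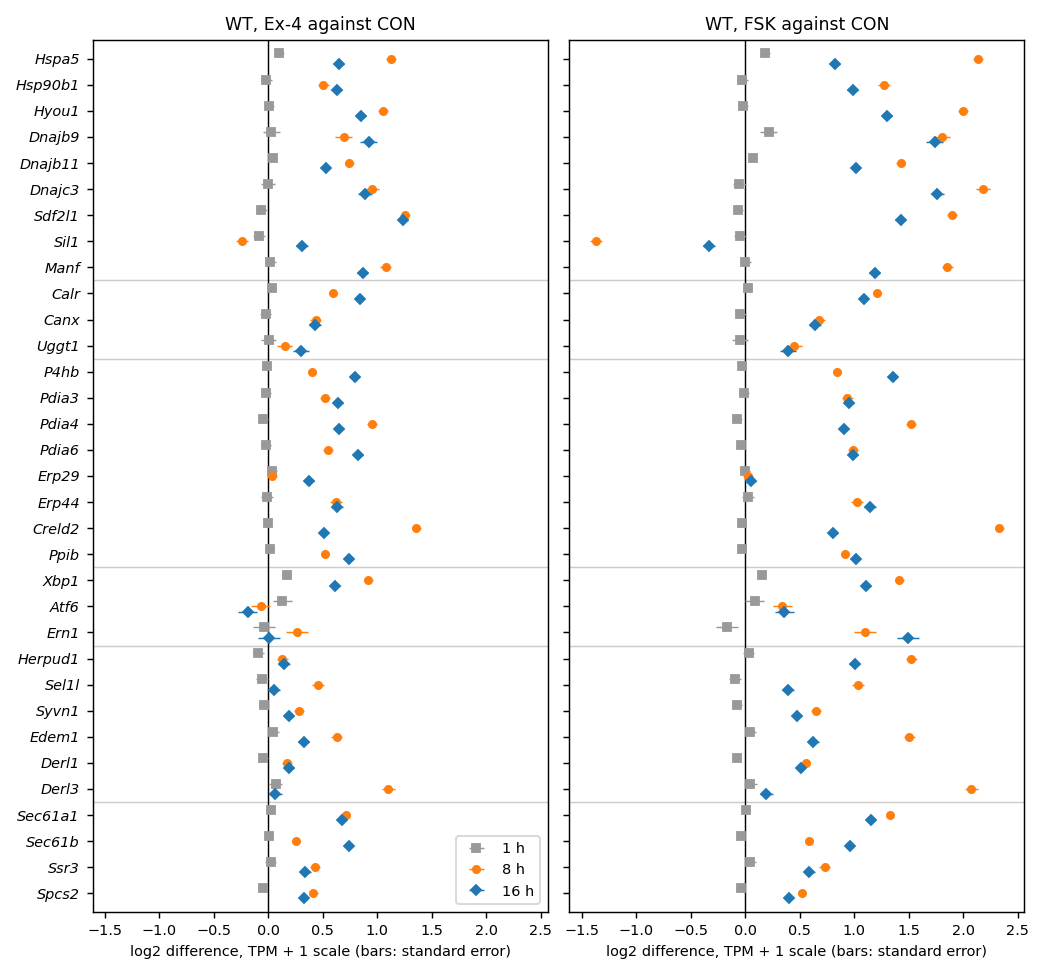
Log2 difference from CON in WT cells (x axis, TPM + 1 scale; bars are standard errors) for the 33 genes, grouped by role, after Ex-4 (left) or FSK (right) for 1 h (grey squares), 8 h (orange circles) and 16 h (blue diamonds). The 1 h points lie near 0, and Sil1 at 8 h of FSK (-1.37) is the one point far to the left.

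In the BiP system most genes were higher at both 8 and 16 h. BiP itself (Hspa5, chr3:13838304-13842763 in rn6), the main Hsp70 chaperone of the ER, was at 1051 and 1041 TPM in WT CON, 2258 and 2316 TPM at 8 h of Ex-4, and 1622 and 1656 TPM at 16 h, so the groups did not overlap and 8 h was higher than 16 h. Its log2 difference was 1.13 ± 0.05 (standard error) at 8 h and 0.65 ± 0.05 at 16 h (adjusted p = 9.44e-12), and 8 h of FSK took it to 4403 and 4794 TPM. In this group, 7 of the 9 genes were called at 16 h of Ex-4. The largest change among all 33 was that of Sdf2l1, a partner of the J-domain cochaperones, from 50.1 and 46.4 TPM to 114 and 116 TPM (log2 difference 1.24 ± 0.05, adjusted p = 9.34e-17). Dnajb9, a J-domain cochaperone that also acts on Ire1, went from 26.4 and 24 TPM to 47.1 and 50.1 TPM (0.92 ± 0.08, adjusted p = 2.94e-10). Dnajc3, another cochaperone, went from 45.1 and 42.4 TPM to 81.1 and 82.3 TPM (0.89 ± 0.06, adjusted p = 9.20e-12). These were the leading changes of the group. The others called were the secreted ER protein Manf (0.86 ± 0.05, adjusted p = 2.16e-13), the nucleotide exchange factor Hyou1 (0.85 ± 0.05, adjusted p = 5.91e-14) and the Hsp90 of the ER, Hsp90b1 (0.63 ± 0.05, adjusted p = 1.10e-10). Dnajb11 missed the fold minimum at 16 h (0.53 ± 0.04) and was called at 8 h (0.74 ± 0.04).

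Sil1, the second nucleotide exchange factor of BiP, went the other way from its group under FSK. It was at 56.8 and 60.7 TPM in WT CON, at 20.5 and 23.9 TPM after 8 h of FSK and at 46.8 and 45.9 TPM after 16 h. The 8 h difference was -1.37 ± 0.06, the single call toward lower levels among the 33 in that comparison, and from 8 to 16 h it rose by 1.03 ± 0.06. In S983A cells 8 h of FSK gave 19.8 and 19.3 TPM against 62.4 and 60.9 TPM in CON (-1.61 ± 0.06). At 16 h of Ex-4 the WT libraries were at 74.0 and 72.1 TPM (0.31 ± 0.06, under the fold minimum).

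**Figure D3:**
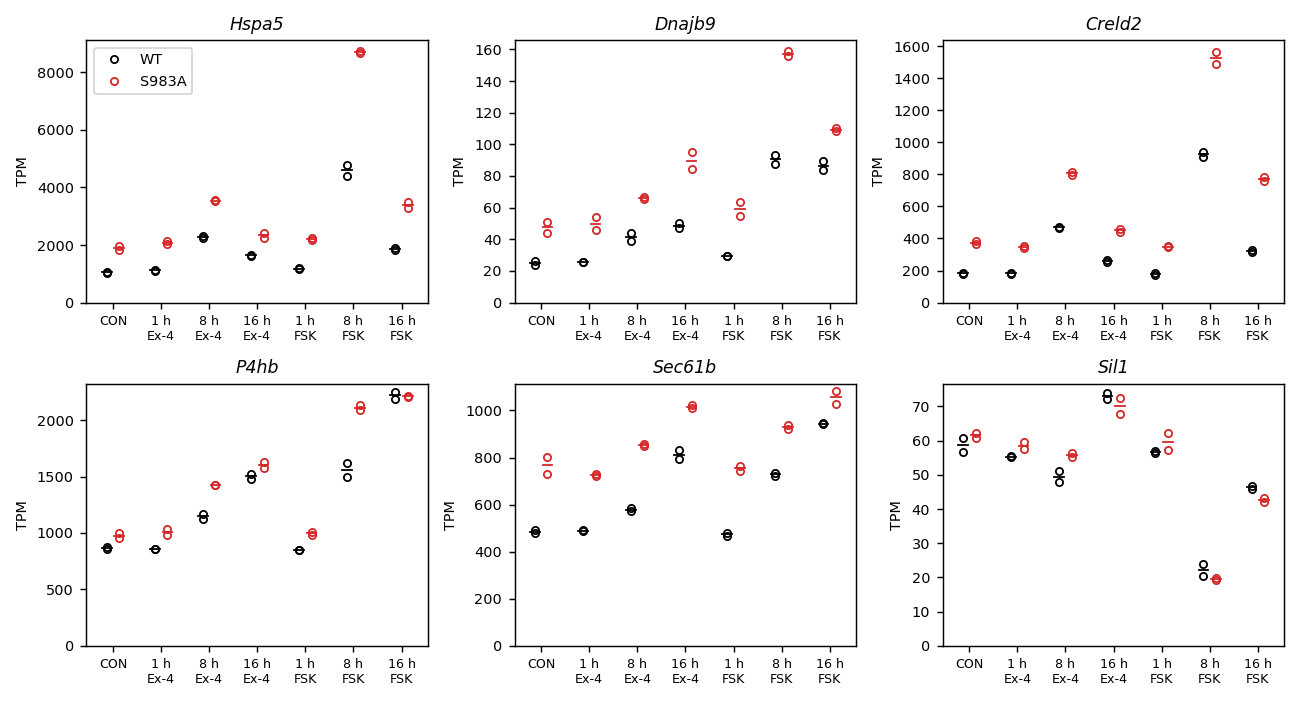
Level in TPM (y axis, from 0) of Hspa5, Dnajb9, Creld2, P4hb, Sec61b and Sil1 in each library (open circles; lines are means of 2), WT in black and S983A in red. Hspa5 and Creld2 peak at 8 h, WT P4hb and Sec61b are highest at 16 h, and Sil1 is lowest at 8 h of FSK.

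Among the lectin chaperones of glycoprotein folding, calreticulin (Calr) rose from 1365 and 1359 TPM in WT CON to 2409 and 2469 TPM at 16 h of Ex-4 (0.84 ± 0.04, adjusted p = 4.22e-15). Calnexin (Canx), its membrane-bound relative, went from 408 and 401 TPM to 538 and 551 TPM, which did not overlap but stayed under the fold minimum (0.43 ± 0.05). Uggt1, the glucosyltransferase that sends misfolded glycoproteins back to these chaperones, changed less (0.30 ± 0.07). Under 8 h of FSK limma called Calr and Canx and did not call Uggt1 (0.45 ± 0.07). By edgeR and DESeq2 Uggt1 was called higher too.

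Of the 8 genes for disulfide and proline isomerases and related proteins, 6 were called higher at 16 h of Ex-4. P4hb, the classical protein disulfide isomerase, went from 879 and 857 TPM in WT CON to 1128 and 1166 TPM at 8 h and 1483 and 1522 TPM at 16 h (0.79 ± 0.04, adjusted p = 8.88e-15). Each step was larger than the spread between libraries, and FSK took P4hb to 2185 and 2254 TPM at 16 h. Pdia6 (0.82 ± 0.04, adjusted p = 6.70e-14), which also acts on the sensors, and the cyclophilin Ppib (0.74 ± 0.04, adjusted p = 1.52e-14) were the other leading calls. Pdia4 (0.65 ± 0.05, adjusted p = 1.83e-11), Pdia3 (0.64 ± 0.05, adjusted p = 1.91e-11) and Erp44, which retains thiol enzymes in the early secretory pathway (0.63 ± 0.05, adjusted p = 3.54e-10), followed. Creld2, a secreted ER stress protein with the element printed above, was at 178 and 187 TPM in WT CON, 471 and 468 TPM at 8 h of Ex-4 and 265 and 255 TPM at 16 h. It had the largest 8 h difference of the 33 under Ex-4 (1.36 ± 0.04) and under FSK (2.33 ± 0.04), and it fell from 8 to 16 h by 0.85 on the log2 scale under Ex-4 and by 1.53 under FSK. Erp29, a chaperone without the isomerase active site, was at 386 and 387 TPM in CON and at 390 and 399 TPM after 8 h of FSK (0.03 ± 0.05). On the TPM scale it was called in none of the 6 WT comparisons with CON. At 16 h of Ex-4 it was at 494 and 507 TPM, and with ERCC scaling it was called higher there.

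Of the sensors and transcription factors, Xbp1 was the one called at 16 h of Ex-4 in WT, from 170 and 162 TPM to 250 and 260 TPM (0.62 ± 0.04, adjusted p = 1.74e-12), with 302 and 328 TPM at 8 h. Ern1, which splices Xbp1 mRNA, was at 11.7 and 9.28 TPM in CON and 9.63 and 11.4 TPM at 16 h of Ex-4, and these overlapped. After 16 h of FSK Ern1 was at 29.8 and 32.4 TPM (1.49 ± 0.10). Atf6 was at 20.1 and 16.6 TPM in CON and 15 and 16.7 TPM at 16 h of Ex-4 (-0.19 ± 0.09), and with ERCC scaling this difference was 0.12, so its direction depends on the scaling. The table holds 2 Xbp1 transcripts, of 1804 and 1832 bases. Reads counted in the longer one alone were 0.60% to 0.97% of its reads, 100 to 596 reads a library, with overlapping ranges between groups. These 28 bases were not matched to the intron that Ire1 removes, and nothing about splicing is read from them.

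None of the 6 measured genes of ER-associated degradation was called at 16 h of Ex-4 in WT by limma, edgeR or DESeq2, with differences from 0.05 to 0.33 and 4 at an unadjusted p under 0.05 by limma. With ERCC scaling 1, Edem1, was called higher. On the TPM scale 5 of 6 were called at 8 h of FSK. Derl3, a channel component of the Derlin family, was at 6.14 and 6.55 TPM in WT CON, 14.6 and 14.9 TPM at 8 h of Ex-4 and 6.88 and 6.49 TPM at 16 h, so the 16 h libraries overlapped those of CON. Under FSK it was at 30.7 and 29.2 TPM at 8 h (2.08 ± 0.06) and 7.39 TPM in both libraries at 16 h. Edem1, a lectin that hands glycoproteins to degradation, was called at 8 h of Ex-4 (0.63 ± 0.05) and of FSK (1.5 ± 0.05). Herpud1, a membrane protein of the Hrd1 ligase complex, was at 100 and 94.9 TPM in WT CON and 103 and 113 TPM at 16 h of Ex-4, and FSK took it to 281 and 285 TPM at 8 h. Sel1l, the adaptor of that complex (1.04 ± 0.06), and Syvn1, its ligase (0.65 ± 0.05), were called at 8 h of FSK. Derl1 was not called by limma (0.55 ± 0.04), and edgeR and DESeq2 called it higher.

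The 4 genes of translocation and signal peptide removal had differences from 0.33 to 0.74 at 16 h of Ex-4, of which those of Sec61b and Sec61a1, subunits of the channel, were called. Sec61b went from 478 and 492 TPM to 831 and 792 TPM (0.74 ± 0.04, adjusted p = 2.42e-14), against 585 and 573 TPM at 8 h. Sec61a1 went from 290 and 276 TPM to 448 and 456 TPM (0.68 ± 0.04, adjusted p = 1.04e-13), with like levels of 470 and 460 TPM at 8 h. Ssr3, of the translocon-associated complex (0.34 ± 0.05), and the signal peptidase subunit Spcs2 (0.33 ± 0.04) stayed under the fold minimum.

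The order of 8 and 16 h thus differed between genes. Under Ex-4 in WT, 19 of the 33 were higher at 8 h than at 16 h and 14 the reverse on the TPM scale, against 11 and 22 with ERCC scaling and 15 and 18 by edgeR or DESeq2, so this balance depends on the scaling. The calls between these times were Creld2 and Derl3, both lower at 16 h (0 higher and 2 lower, against 2.08% and 3.49% over all genes). By limma, 23 of the 33 were at an unadjusted p under 0.05 in this comparison. Under FSK, 8 were lower at 16 h than at 8 h and 1, Sil1, was higher (3.62% and 14% over all genes). The 8 were Hspa5, Hyou1, Manf, Pdia4, Creld2, Sel1l, Edem1 and Derl3. With ERCC scaling, which moved the median of all genes from 0.11 to 0.46, 3 were called lower (Hspa5, Creld2 and Derl3) and 4 higher (Sil1, Ern1, P4hb and Sec61b), and 21 of the 33 lay above 0 in place of 10. The genes with the element printed above had a median difference of 1.74 at 8 h of FSK (8 of 8 called higher) and 0.91 at 16 h, beside 0.84 and 0.62 for the 15 genes whose windows held neither form. These medians were 0.62 and 0.37 at 16 h of Ex-4. This is a description of lists known beforehand, and no test was made on it.

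Between the agents at matched times, none of the 33 was called at 1 h (0 by limma, edgeR or DESeq2; 2 at an unadjusted p under 0.05 by limma; 0.652% and 1.14% over all genes). At 8 h, 15 genes were lower under Ex-4 than under FSK and 1, Sil1, was higher, against 4.77% lower and 23.3% higher over all genes. The count lower was 26 by edgeR and by DESeq2, 27 with median centring and 11 with ERCC scaling. Among the genes lower under Ex-4, the largest differences were those of Herpud1 (-1.40 ± 0.05), Dnajc3 (-1.24 ± 0.06) and Dnajb9 (-1.11 ± 0.08). At 16 h, 4 were lower under Ex-4 (Ern1, Dnajc3, Herpud1 and Dnajb9) and Sil1 was higher, against 7.29% and 11.4%. The agents were given at 1 concentration each, so a difference between them is also one between those concentrations.

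Without treatment, 12 of the 33 were higher and 1 lower in S983A than in WT cells, against 8.29% and 11.1% over all genes, with a median of 0.38 beside -0.07. Sdf2l1 differed most, at 219 and 231 TPM in S983A CON against 50.1 and 46.4 TPM in WT CON (2.20 ± 0.05, adjusted p = 1.08e-22). Derl3 was at 24.9 and 26.1 TPM against 6.14 and 6.55 TPM (1.85 ± 0.06, adjusted p = 3.10e-19). Creld2 was at 384 and 363 TPM against 178 and 187 TPM (1.03 ± 0.04, adjusted p = 1.06e-17). In each of these the untreated mutant libraries lay above all untreated WT libraries. Hspa5 was at 1982 and 1816 TPM (0.86 ± 0.05, adjusted p = 1.39e-14), above the WT libraries at 16 h of Ex-4. The other calls toward higher levels were those of Dnajb9 (0.89 ± 0.08, adjusted p = 3.18e-10), Pdia6 (0.87 ± 0.04, adjusted p = 5.53e-15), Hyou1 (0.82 ± 0.05, adjusted p = 3.69e-14), Edem1 (0.77 ± 0.05, adjusted p = 1.63e-12), Manf (0.75 ± 0.05, adjusted p = 1.14e-12), Sec61b (0.66 ± 0.04, adjusted p = 6.49e-14), Xbp1 (0.66 ± 0.04, adjusted p = 1.66e-13) and Pdia4 (0.61 ± 0.05, adjusted p = 2.09e-11). Hsp90b1, at 1419 and 1286 TPM against 1312 and 1306 TPM, overlapped (0.04 ± 0.05). None of the 3 glycoprotein folding genes was called by limma, edgeR or DESeq2, with differences from 0.19 to 0.22 and 3 at an unadjusted p under 0.05 by limma.

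Erp29 was the exception, at 221 and 229 TPM in S983A CON against 386 and 387 TPM in WT CON (-0.78 ± 0.05, adjusted p = 9.31e-14). With ERCC scaling it was no longer called. Its neighbours on chromosome 12 moved with it: the median difference of the 25 tested genes on each side was -0.57. Sdf2l1 on chromosome 11 also lay among neighbours with a raised median, of 0.44, which was 1.76 below its own difference. For the other 31 genes the neighbourhood median lay within 0.3 of 0, and for Derl3 it was -0.06. The part of these neighbourhoods in the 2 differences was not tested.

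**Figure D4:**
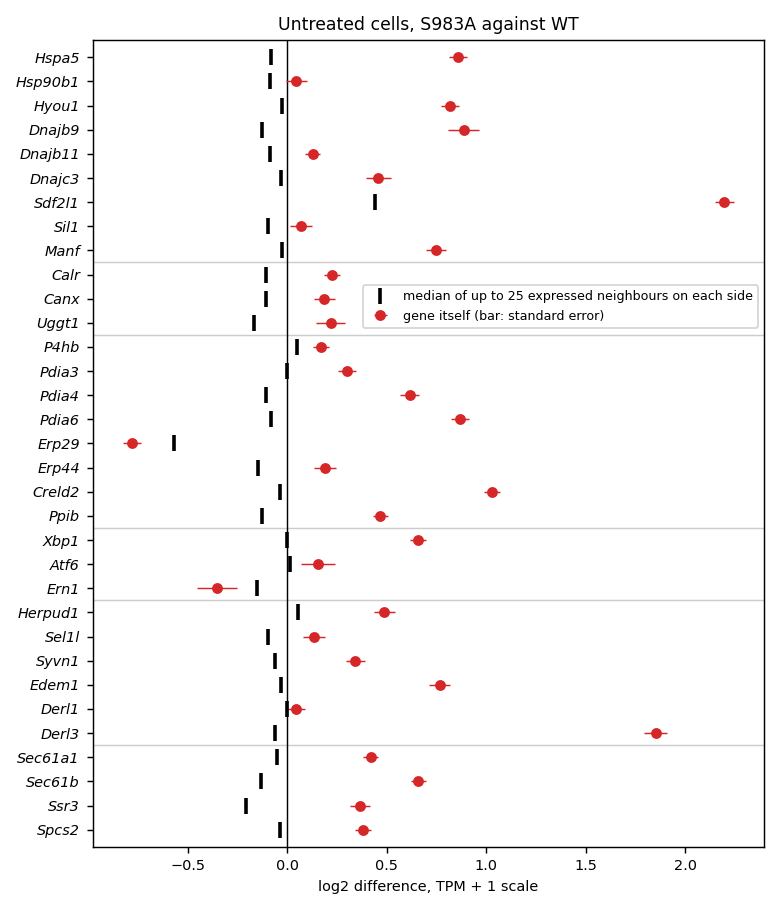
Log2 difference of S983A from WT in untreated cells (x axis, TPM + 1 scale) for the 33 genes (red circles; bars are standard errors) and the median of up to 25 tested neighbours on each side (black ticks). Sdf2l1 (2.20) and Derl3 (1.85) lie far to the right of their ticks, and Erp29 (-0.78) lies near its tick (-0.57).

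In S983A cells no gene of the 33 was called at 1 h of Ex-4 or FSK by limma, edgeR or DESeq2. Over all genes 2.03% were higher and 1.00% lower for Ex-4, and 3.19% and 7.20% for FSK. The count at an unadjusted p under 0.05 was 7 for Ex-4 and 11 for FSK by limma, 9 and 22 by edgeR, and 16 and 24 by DESeq2. For 1 h of FSK 16 lay above 0 on the TPM scale, 30 by edgeR and 3 with ERCC scaling. At 8 h of Ex-4, 17 were higher and 0 lower (3.21% and 3.09%), and at 16 h 6 were higher and 1, Derl3, was lower (4.73% and 7.15%). The 6 were Dnajb9, P4hb, Erp44, Ern1, Herpud1 and Sel1l. FSK called 28 higher and 1 lower at 8 h (11.6% and 34.5%) and 22 higher and 0 lower at 16 h (12.2% and 21.1%). By edgeR, 17 were called higher at 8 h and 9 at 16 h of Ex-4, and 30 and 24 for FSK. By DESeq2 these counts were 17, 10, 31 and 26. After 16 h of Ex-4, 8 of the 33 were higher in S983A than in WT cells and 1 lower (10.6% and 10.2% over all genes). Of the 8, 5 were also higher at CON, and 3 (Atf6, Herpud1 and Sel1l) were not among the 12 called there. After 16 h of FSK 6 were higher, all 6 of them also called at CON, and 1 lower (11.6% and 11.7%).

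A call in one genotype and not in the other shows no difference. The responses were therefore compared directly as the genotype by treatment interaction. A negative value is a smaller response in S983A on the log2 scale, relative to the CON level of each genotype. At 1 h no gene was called by limma, edgeR or DESeq2 for either agent (2 for Ex-4 and 3 for FSK at an unadjusted p under 0.05 by limma; over all genes 0.341% higher and 0.331% lower for Ex-4, 0.876% and 0.769% for FSK). Ex-4 for 8 h gave 0 higher and 2 lower by limma, edgeR and DESeq2 (1.98% and 0.798% by limma), with 16 genes at an unadjusted p under 0.05 by limma. Ex-4 for 16 h gave 2 higher and 2 lower (5.43% and 1.81%), and with ERCC scaling the count was 0 higher and 15 lower, so the balance of these calls depends on the scaling. By edgeR, by DESeq2 and with median centring Erp29 and Xbp1 were also called lower there. FSK gave 3 higher and 3 lower at 8 h (7.65% and 6.21%) and 0 higher and 2 lower at 16 h (10.6% and 6.40%). All interaction terms share the CON libraries of both genotypes.

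Xbp1 was higher in untreated S983A cells, and its levels in the genotypes met at 8 h of Ex-4. The S983A libraries were at 269 and 256 TPM in CON and 310 and 304 TPM at 8 h of Ex-4, within the range of the WT libraries at that time (302 and 328 TPM). The interaction was -0.69 ± 0.06 (adjusted p = 2.70e-09) at 8 h of Ex-4, -0.72 ± 0.06 (adjusted p = 1.25e-10) at 8 h of FSK and -0.80 ± 0.06 (adjusted p = 1.37e-11) at 16 h of FSK. Derl3 had smaller responses on the log2 scale as well, with -0.59 ± 0.08 at 8 h (adjusted p = 1.52e-05) and -0.91 ± 0.08 at 16 h of Ex-4 (adjusted p = 4.21e-09). At 8 h it went from 24.9 and 26.1 TPM to 36.4 and 37.3 TPM in S983A. In WT it went from 6.14 and 6.55 TPM to 14.6 and 14.9 TPM, so in TPM the rise was not smaller in S983A. At 16 h the S983A libraries fell to 14.3 and 13.3 TPM. The level of Derl3 in S983A was above that in WT at each time. Sdf2l1 was at 270 and 291 TPM at 16 h of Ex-4 in S983A, with an interaction of -0.92 ± 0.07 (adjusted p = 9.13e-11).

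The sensors Ern1 and Atf6 responded more in S983A at 16 h of Ex-4 and 8 h of FSK. Ern1 went from 7.95 and 7.91 TPM in S983A CON to 16.8 and 15.5 TPM at 16 h of Ex-4, against overlapping WT libraries, with an interaction of 0.93 ± 0.14 (adjusted p = 1.18e-05). Atf6 went from 21.5 and 19.4 TPM to 31.1 and 26.4 TPM, with an interaction of 0.66 ± 0.12 (adjusted p = 1.27e-04). By DESeq2 and with median centring Atf6 was not called at 16 h of Ex-4, and with ERCC scaling neither of these 2 was called there. Neither was called at 8 h of Ex-4 or at 16 h of FSK, where the interactions were 0.34 ± 0.14 for Ern1 and 0.43 ± 0.12 for Atf6 and Ern1 was at 30.2 and 31.2 TPM in S983A against 29.8 and 32.4 TPM in WT. Under 8 h of FSK, Ern1 reached 37.4 and 33.7 TPM and Atf6 55.0 and 49.9 TPM in S983A, against 22.7 and 24.4 TPM and 22.1 and 24.7 TPM in WT. Herpud1 was the third gene with a larger response there, at 739 and 679 TPM against 281 and 285 TPM in WT (0.83 ± 0.07, adjusted p = 1.29e-09).

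**Figure D5:**
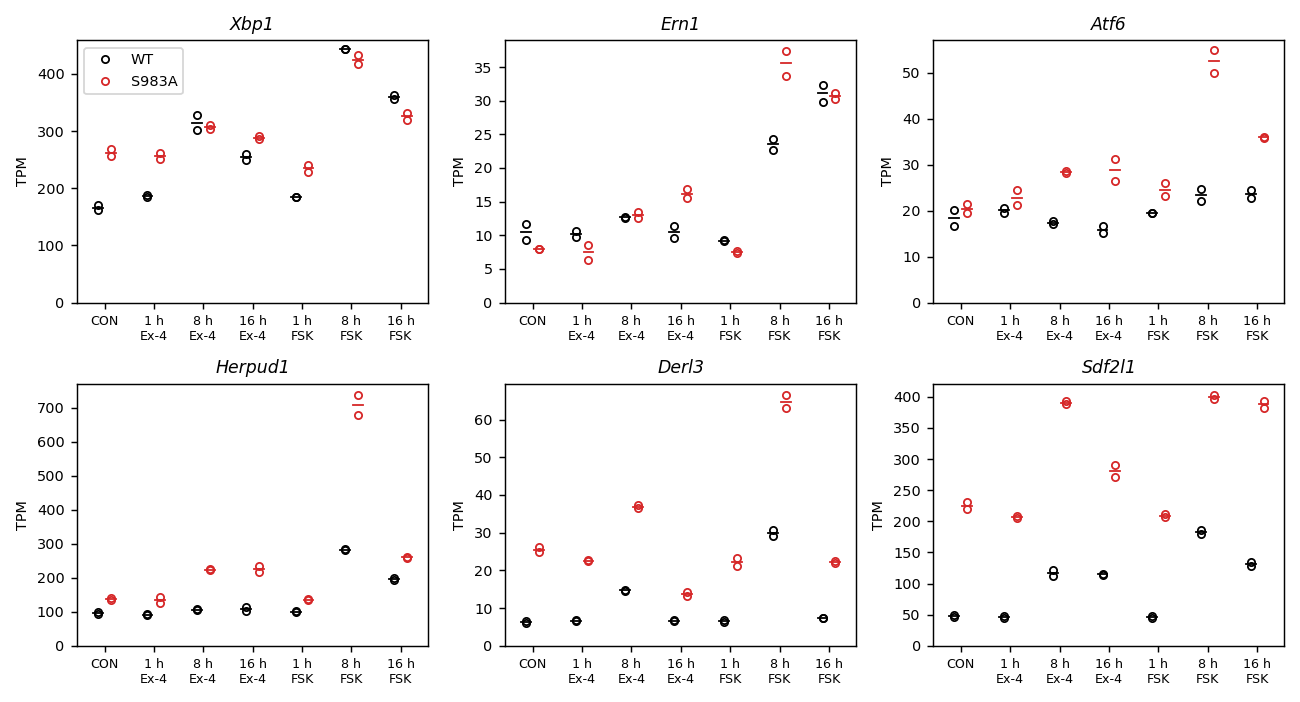
Level in TPM (y axis, from 0) of the 6 genes with a called interaction, in each library (open circles; lines are means of 2), WT in black and S983A in red. Xbp1 levels of the genotypes meet at 8 h of Ex-4, Ern1, Atf6 and Herpud1 separate most at 8 h of FSK, and Derl3 and Sdf2l1 are higher in S983A in all 7 conditions.

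Related genes that are not among the 33 were counted for the same comparisons, in which 3.53% of all genes were higher and 8.28% lower at 16 h of Ex-4 in WT. In WT at 16 h of Ex-4, 7 of 32 other folding, redox and degradation genes were higher and 0 lower (median 0.24), led by the prolyl isomerase Fkbp11 (1.24 ± 0.04), Selenos (0.72 ± 0.04) and the lectin Erlec1 (0.69 ± 0.05). Of 22 other translocation and oligosaccharyltransferase genes 7 were higher (median 0.54), led by Ostc (1.00 ± 0.04), Ssr4 (0.72 ± 0.04) and Ddost (0.68 ± 0.04). Of 16 genes for carriers between ER and Golgi 6 were higher (median 0.40), led by the retrieval receptor Kdelr3 (1.51 ± 0.06), Tmed3 (1.13 ± 0.04) and the cargo receptor Lman1 (0.72 ± 0.06). Of 7 other sensors and processing proteases 1 was higher, Creb3l1 (0.99 ± 0.08; median 0.40). None of these 4 lists had a gene called lower by limma, edgeR or DESeq2. The counts higher were 7, 7, 6 and 1 by limma, in the order given, and 11, 13, 8 and 3 by edgeR or DESeq2.

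Of the targets of the Perk branch, 4 of 8 were higher in WT at 16 h of Ex-4 (median 0.56), with Trib3 at 1.71 ± 0.09, Chac1 at 1.58 ± 0.09 and Ddit3 at 0.69 ± 0.06. By edgeR 5 of 8 were higher there, and by DESeq2 6 of 8. In S983A 7 of 8 were higher (median 1.64), and the interaction was called higher for 7 of 8 (median 1.10 beside 0.09 for all genes), with Trib3 at 1.60 ± 0.13, Chac1 at 1.21 ± 0.12 and Ddit3 at 1.01 ± 0.09, against 5.43% of all genes. With ERCC scaling the interaction was called higher for 4 of 8 by limma and 3 of 8 by edgeR or DESeq2. After 16 h of FSK the interaction went the other way for Trib3 (-0.98 ± 0.13) and Chac1 (-1.49 ± 0.12), the 2 of 8 called lower, with 0 higher by limma, edgeR or DESeq2 and Ddit3 at -0.15 ± 0.09, and 4 of 8 were at an unadjusted p under 0.05 by limma. Of 8 beta cell markers, 2 were higher and 1 lower at 16 h of Ex-4 in WT (median -0.16): Ins1 (0.77 ± 0.06), Iapp (0.69 ± 0.05) and Slc2a2 (-0.76 ± 0.05). By DESeq2, 2 of these markers were higher and 0 lower. Gcg was the 1 tested marker of other cells and was higher (2.51 ± 0.07).

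In untreated cells, where 8.29% of all genes were higher and 11.1% lower in S983A, 4 of the 32 other folding genes were higher and 1 lower (median 0.17), with Fkbp11 at 0.84 ± 0.04, Fkbp14 at 0.77 ± 0.11 and Erlec1 at 0.76 ± 0.05. By edgeR 7 of the folding genes were higher and 0 lower, and by DESeq2 7 and 1. Among the 22 translocation genes (median 0.16), limma called 1 in each direction, a smaller share than over all genes. Ddost was higher (1.26 ± 0.04) and Stt3a lower (-0.89 ± 0.05). By edgeR or DESeq2, 4 translocation genes were higher and 1 lower, so this share depends on the tool. Of the 16 carrier genes 3 were higher, Kdelr3 (2.00 ± 0.06), Tmed3 (0.65 ± 0.04) and Sec23b (0.61 ± 0.05), and 1 lower (median 0.12). By edgeR or DESeq2, 3 carrier genes were higher and 0 lower. Of the 7 sensors 2 were higher, the membrane-bound factors Creb3l1 (1.97 ± 0.08) and Creb3l2 (1.03 ± 0.08; median 0.23). Of the 8 Perk targets 2 were higher, Chac1 (1.82 ± 0.09) and Trib3 (1.60 ± 0.09; median 0.36). The beta cell markers split, 2 higher and 2 lower, with Ins2 at 3.57 ± 0.06, Slc2a2 at -3.02 ± 0.05 and Iapp at -1.10 ± 0.05 (median 0.10). Gcg was lower (-4.52 ± 0.07).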

How the data were processed

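RNA-seq of INS-1 cells was available as 28 libraries in 14 groups named by the sample titles. Per the study's methods and the submitters' processing notes, the authors aligned paired-end reads with STAR 2.5.3a to the rat genome build rn6 joined with the ERCC spike-in sequences, and quantified genes with QoRTs and HOMER 4.11.1. The authors tested differential expression with DESeq2 1.24.0, with size factors from the ERCC spike-ins. The main calls here are on the TPM scale instead, and those with ERCC scaling are nearer to the scale of the study. The deposited TPM table held 1 line per transcript, and the deposited counts were those of the 92 ERCC sequences. TPM times length gave whole reads in 100% of 135800 low values (within 0.05 reads; 22.7% by chance), so fragments could be recovered.

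For each symbol the transcript with the highest mean TPM was kept, and 10275 symbols with a mean of at least 1 TPM were tested with limma 3.58.1 (R 4.3.3; trend, all 28 libraries, 14 group means) on log2(TPM + 1), so that fold changes of low genes are understated. A call needed a Benjamini-Hochberg adjusted p under 0.05 over all genes tested and a fold above 1.5, two-sided. edgeR 4.0.16 (quasi-likelihood) and DESeq2 1.42.0 were run on the recovered fragments as alternatives. Scripts were tested on simulated data. Errors in the text are standard errors of the fit.

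All members were named, with full statistics for those called at 16 h of Ex-4 in WT, between genotypes at CON or in the 16 h Ex-4 interaction. From each other list at most 3 called genes were named in each of the first 2 comparisons. The members and lists were chosen with earlier results of these data known. Replicate numbers were not used to pair libraries. Intervals on read shares cover counting error only.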

Additional observations from a re-analysis of the deposited data

Results flagged for a closer look

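Responses to treatment that differed between genotypes, by a test of the difference itself (genotype by treatment interaction, limma, adjusted p under 0.05 and more than 1.5-fold), were found for 6 of the 33 genes. At 8 h of Ex-4 the log2 interaction was -0.69 for Xbp1 and -0.59 for Derl3. At 16 h of Ex-4 it was 0.93 for Ern1, 0.66 for Atf6, -0.91 for Derl3 and -0.92 for Sdf2l1. At 8 h of FSK it was 0.93 for Ern1, 0.98 for Atf6, 0.83 for Herpud1, -0.72 for Xbp1, -0.76 for Derl3 and -1.07 for Sdf2l1. At 16 h of FSK it was -0.80 for Xbp1 and -0.64 for Sdf2l1. The terms share CON libraries, so they are not independent of each other. Over all genes 1.98% were called higher and 0.798% lower at 8 h of Ex-4, and 5.43% and 1.81% at 16 h. For FSK these shares were 7.65% and 6.21% at 8 h, and 10.6% and 6.40% at 16 h. The counts at 8 h of FSK, lower at 16 h of FSK and higher at 16 h of Ex-4 lie near these shares. They do not set the 33 genes apart. With ERCC scaling Ern1 and Atf6 were not called at 16 h of Ex-4, and the count there was 0 higher and 15 lower. Atf6 was also not called there by DESeq2 or with median centring. Groups of 2 libraries were too small for a search for single libraries that stand apart.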

How the results depend on the processing

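Shares over all genes are given above only for the limma calls on the TPM scale with the fold minimum. The counts in this section therefore do not compare the members with other genes. The 1.5-fold minimum was the choice that moved most counts. Without it, the members called higher or lower against CON in WT were 1 higher at 1 h of Ex-4, 29 and 1 after 8 h, and 29 higher after 16 h, 3 higher at 1 h of FSK and 1 lower at 16 h. In S983A they were 2 higher and 1 lower at 1 h of Ex-4, 32 and 1 after 8 h, 31 and 2 after 16 h, 5 and 4 at 1 h of FSK, and 3 lower after 16 h of FSK. Between genotypes they were 27 and 2 at CON, 27 higher at 16 h of Ex-4, and 25 and 2 after 16 h of FSK. For the interaction they were 4 higher and 6 lower at 8 h of Ex-4, 4 and 15 at 16 h, 1 lower at 1 h of FSK, 12 and 9 at 8 h, and 7 and 16 at 16 h. Between agents they were 31 lower (8 h), and 2 higher with 28 lower (16 h). From 8 to 16 h they were 10 higher and 11 lower for Ex-4, and 5 and 19 for FSK.

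Scaling came next. With ERCC scaling, in limma and in DESeq2 and edgeR fits chosen after seeing the data, 26 members were higher at 16 h of Ex-4 in WT, 0 were lower between genotypes at CON, 5 were higher at 16 h of Ex-4 between genotypes, and 1 was lower in the 1 h FSK interaction. The 16 h interaction became 0 higher and 15 lower for Ex-4 and 5 lower for FSK. From 8 to 16 h, 2 were higher for Ex-4, and 4 were higher and 3 lower for FSK. In limma alone 0 were higher under Ex-4 than under FSK at 16 h. Median centring gave 1 higher and 4 lower in the 16 h Ex-4 interaction, 4 lower in that of 16 h FSK, 27 lower for Ex-4 against FSK at 8 h, and 1 higher from 8 to 16 h of Ex-4. edgeR and DESeq2 each gave 4 lower in both of these interactions, 26 lower for Ex-4 against FSK at 8 h and 1 higher from 8 to 16 h of Ex-4, and DESeq2 alone gave 1 higher in the 16 h Ex-4 interaction and 10 higher at 16 h of Ex-4 in S983A. The ratio of the members' share, 16 h of Ex-4 over CON in WT, went from 1.57 to 1.98 with ERCC scaling and 1.79 with median centring, and S983A over WT at CON from 1.32 to 1.53 and 1.41. The median neighbourhood difference at CON was -0.08, and -0.045 with 10 neighbours on each side.

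With 1 library left out, the 8 h Ex-4 interaction gave 0 to 2 higher and 1 to 2 lower (2 higher without WT CON replicate 2; 1 lower without WT CON replicate 1, WT 8 h Ex-4 replicate 2, S983A CON replicate 2 or S983A 8 h Ex-4 replicate 1), the 16 h Ex-4 interaction 1 to 4 higher (4 without S983A 16 h Ex-4 replicate 2), and 8 to 16 h of Ex-4 0 to 1 higher. In the 16 h Ex-4 comparison in WT and the genotype comparison at CON, differences that changed sign were those of Atf6 at 16 h of Ex-4 in WT (0.12 with each ERCC scaling), Ern1 there (from -0.14, without WT CON replicate 2, to 0.16, without WT CON replicate 1; -0.10 without WT 16 h Ex-4 replicate 2) and Hsp90b1 between genotypes at CON (-0.026 without S983A CON replicate 1). None of these was called, and no called difference of a member changed sign in any comparison. Among uncalled differences, ERCC scaling turned the sign of 9 members between genotypes at 16 h of Ex-4, 8 for Ex-4 and 11 for FSK from 8 to 16 h, 5 in each 16 h interaction and 23 in the 1 h FSK interaction, and 22 changed sign between agents at 1 h with ERCC scaling, edgeR or DESeq2. A replicate block left every count as it was (17 higher at 16 h of Ex-4 in WT, 12 between genotypes at CON), and replicate numbers did not pair libraries (correlations from -0.28 to 0.28 over 91 pairs of groups). The causes were not tested.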
